A study of Mus musculus with 4 samples.

Results

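The genes described here encode the lysosomal proton pump, its accessory subunits, lysosomal membrane proteins and hydrolases other than cathepsins, and the transcription factor Tfeb. They were chosen by symbol, as the 33 of 54146 genes of the count table whose Ensembl identifier maps to these names in GENCODE M21. All 33 were found and all 33 passed the filter on low counts. The counts come from tumor-associated macrophages (TAMs) from fibrosarcomas that the mouse line MCA205 formed under the skin of female mice of 8 to 16 weeks of age, after magnetic enrichment of CD45+ cells and a sort of viable CD11b+ F4/80+ cells. The 4 libraries comprise 2 of control TAMs, which carry the label vehicle, and 2 of TAMs from mice that drank water with propranolol, a nonselective blocker of beta-adrenergic receptors, at 0.5 g/L from the day of tumor cell injection. Total counts were 13798249 and 23018142 (control) against 39818103 and 16424081 (propranolol), in the order of replicates 1 and 2. The labels do not say whether a library holds 1 mouse or a pool, so that p-values measure the spread between these libraries. The macrophage genes behind the sort were abundant in each library, with 975, 1008, 1151 and 1100 CPM for Adgre1, which encodes F4/80, and 359, 352, 369 and 313 CPM for Itgam, which encodes CD11b. Levels are given as CPM, the counts scaled to library size with TMM factors, and the libraries are always given as control replicates 1 and 2 and then propranolol replicates 1 and 2. Control replicate 1 stood apart in fibroblast and sarcoma cell markers, which summed to 3351 CPM there and to 1276, 720 and 752 CPM in the other libraries, and the counts of called genes are therefore also given without it.

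The vacuolar ATPase (V-ATPase) is a rotary pump that hydrolyzes ATP in its cytosolic V1 sector and moves protons through its membrane-embedded V0 sector. It acidifies endosomes and lysosomes, and most lysosomal hydrolases work best at the low pH that it sets. Macrophages depend on this compartment to degrade engulfed cells, matrix and lipoproteins. The transcription factor TFEB and its relatives drive many lysosomal genes through a palindromic E-box, the CLEAR motif.

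Because the CLEAR motif is a sequence that many of these genes are known to share, their promoters were searched for it first. RefSeq promoters of GRCm38.p6, from 250 bases before to 50 bases after the annotated start, matched 26 of the 33 symbols, while Asah1, Atp6v0d2, Atp6v1b2, Atp6v1c1, Atp6v1g1, Atp6v1h and Npc1 were not matched. The full CLEAR palindrome, which adds a G before and a C after TCACGTGA, was in the promoter of 0 of the 26 genes and of 0.37% of all 27025 genes in the set. The core TCACGTGA was found in 5 of 26 (19.2%) and in 1.12% of all genes. The 7-letter form TCACGTG, searched on both strands and contained in both longer forms, was found in 8 of 26 (30.8%) and in 4.29% of all genes. The shares over all genes were not restricted to genes that passed the filter on low counts, as all 26 did. A match describes letters in a window and not a bound site. The stretches that hold them are shown 5′ to 3′ on the strand of the gene, with the matched letters in capitals.
Lamp1, chr8:13159088-13159160, plus strand: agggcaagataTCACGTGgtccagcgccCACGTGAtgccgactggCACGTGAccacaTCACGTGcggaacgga
Mcoln1, chr8:3500462-3500491, plus strand: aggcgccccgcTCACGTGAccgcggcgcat
Atp6v0b, chr4:117887330-117887377, minus strand: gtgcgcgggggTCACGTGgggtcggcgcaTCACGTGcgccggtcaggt
Atp6v0d1, chr8:105566050-105566079, minus strand: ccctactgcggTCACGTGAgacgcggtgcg
Atp6v0e, chr17:26676387-26676416, plus strand: tagcgcgccgaTCACGTGAgcctctgttga
Atp6v1a, chr16:44139373-44139402, minus strand: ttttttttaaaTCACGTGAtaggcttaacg
Gla, chrX:134601182-134601244, minus strand: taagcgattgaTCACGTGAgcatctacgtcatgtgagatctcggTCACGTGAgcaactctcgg
Glb1, chr9:114401018-114401047, plus strand: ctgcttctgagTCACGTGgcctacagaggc
Lamp1 held 4 matches between 61 and 15 bases before its start, Mcoln1 a second one 71 bases before, and the match of Atp6v0e lay 4 bases past its start.

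TAMs from propranolol treated mice were compared with TAMs from control mice, to see how the transcripts of this compartment differed between them. Calls required both an adjusted p under 0.05 in the edgeR quasi-likelihood test (Benjamini-Hochberg over 14688 tested genes) and more than a 1.5-fold change (0.585 on the log2 scale). Of the 33 genes, 6 were called higher after propranolol: Atp6v0c, Atp6v1f, Atp6ap1, Gusb, Neu1 and Tpp1. Another 3 were called lower: Atp6v1g1, Lamp2 and Asah1. None of these 3 was called without control replicate 1 or without propranolol replicate 2, when 0 of the 33 genes were lower. The called share was 27.3%, against 27.8% of all tested genes, with 18.2% higher against 12.2% and 9.09% lower against 15.6%, so that the set as a whole was called no more often than the background. Without the fold threshold, 22 of 33 passed the adjusted p, 16 higher and 6 lower, where the background was 42.2%, with 21.8% higher and 20.4% lower. Both propranolol libraries lay above both control libraries for 18 genes and below both for 8, and the groups overlapped for 7. The background of such separation was 72.6%, with 35.8% above and 36.9% below. In bulk RNA, fewer cells of a type and less RNA per cell cannot be told apart. The median log2 fold change of the 33 genes was 0.21 and ranged from -0.69 to 0.98, against a median of -0.02 over all tested genes. Without propranolol replicate 1 the median of the 33 was 0.0893, without propranolol replicate 2 it was 0.35 and without control replicate 1 it was 0.33. Because fold changes moved with the GC content of the transcripts, values are also given from a second fit, called GC-corrected, in which a smooth GC trend of each library was taken out.

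**Figure D1:**
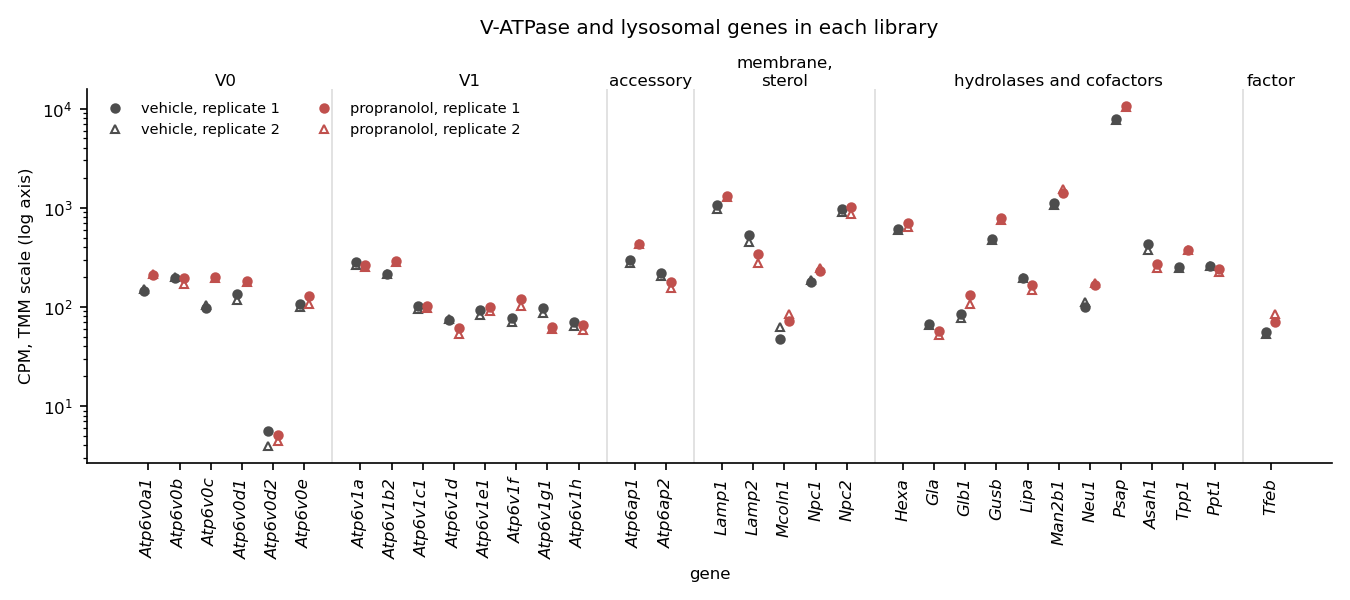
CPM on the TMM scale (log axis) of each of the 33 genes in each library, grouped by role; grey marks are control (vehicle) libraries, red marks are propranolol libraries, filled circles are replicate 1 and open triangles replicate 2. Psap stands at the top, between 7634 and 10697 CPM, Atp6v0d2 at the bottom, between 3.95 and 5.60 CPM, and replicates of one group lie close together next to the distance between genes.

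Levels of different genes were compared as TPM, which divide the counts by the length of all annotated exons. Psap, which encodes the precursor of the saposins that help hydrolases degrade sphingolipids, had the highest level in every library, with TPM of 9314, 9371, 10758 and 10934. In CPM, which are not divided by length, it alone made up 47.4%, 48.2%, 51.8% and 52.2% of the sum over the 33 genes. The median gene of the set had 155, 146, 151 and 150 TPM. The lowest was Atp6v0d2, an alternative form of the V0 subunit d that is known from osteoclasts and some macrophages, with 6.74, 4.89, 5.20 and 4.64 TPM. The summed CPM of the 33 genes were 16462, 15856, 20636 and 20015, and without Psap they were 8652, 8222, 9939 and 9566. Both CPM sums were higher in both propranolol libraries. In TPM the sum of all 33 genes was 16865, 16731, 18131 and 18209, also without overlap, but the sum without Psap was 7551, 7360, 7373 and 7275, where the groups overlapped. For the 16 genes of the pump, the summed level depended on the scale, with 2213, 2109, 2603 and 2456 CPM but 2431, 2363, 2389 and 2319 TPM. The groups thus did not overlap in CPM and overlapped in TPM, which were not scaled with TMM factors.

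Within the V0 sector, Atp6v0c rose and the other 5 subunits were not called changed, where 12.2% of all tested genes were called higher and 15.6% lower. In the GC-corrected fit Atp6v0a1 and Atp6v0e were called higher as well (3 of 6, against 7.64% of all tested genes). Atp6v0c (ENSMUSG00000024121.13, chromosome 17, 24163866 to 24169702 of GRCm38) encodes the proteolipid c that forms most of the proton-carrying ring. Its level was 97.8 and 104 CPM (control) against 202 and 197 CPM (propranolol), so that the groups were far apart. This gave 101 ± 4.68 against 199 ± 3.50 CPM (SD, n = 2 libraries each) and a log2 fold change of 0.98 (standard error, SE, 0.10, edgeR adjusted p = 0.000127), the largest in either direction among the 33 genes as counted, though not in the GC-corrected fit. It was called higher under all 11 alternative settings that keep the fold threshold, with log2 fold changes from 0.83 to 1.05. The genome holds 2 named pseudogenes of Atp6v0c, and reads that map equally well to several places were removed by the mapping quality filter, so that its level relative to other genes is uncertain. Its ring partner Atp6v0b, which encodes subunit c'', had 194 and 199 CPM (control) against 196 and 172 CPM (propranolol). Of its exon length, 11.8% overlaps the antisense gene Gm12841, whose reads could not be told apart. The groups overlapped (log2 fold change -0.09, SE 0.10, edgeR adjusted p = 0.493). The TPM ratio of Atp6v0c to Atp6v0b was 0.305, 0.318, 0.622 and 0.695, which is 2.11 times as high on average in the propranolol libraries.

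The other V0 subunits showed smaller differences. Atp6v0d1, the common form of the stalk subunit d, had 134 and 118 CPM (control) against 184 and 179 CPM (propranolol). It was higher by less than the fold threshold (log2 fold change 0.52, SE 0.10, edgeR adjusted p = 0.00271), and GC-corrected it had 0.30 (edgeR adjusted p = 0.0637). Atp6v0a1, a form of the large subunit a that lines the proton path, had a log2 fold change of 0.52 (edgeR adjusted p = 0.00192), also under the threshold, and a GC-corrected one of 0.75, which was called. Atp6v0d2 had only 83, 99, 186 and 67 counts, and its levels of 5.60 and 3.95 CPM (control) against 5.12 and 4.39 CPM (propranolol) overlapped (log2 fold change 0.01, SE 0.30). This standard error was the largest of the set, and a GC-corrected log2 fold change of 0.71 did not pass either (edgeR adjusted p = 0.105). Atp6v0e had a log2 fold change of 0.21 (edgeR adjusted p = 0.167) and a GC-corrected one of 0.60, which was called.

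In the V1 sector, 1 gene rose, 1 fell and 6 were not called changed, where 27.8% of all tested genes were called, and the median log2 fold change was -0.03. GC-corrected, the median of the sector was 0.35, against 0.09 over all tested genes. Atp6v1f (ENSMUSG00000004285.12, chromosome 6, 29467718 to 29470512), a small subunit of the central rotor, had 76.7 and 70.7 CPM (control) against 119 and 103 CPM (propranolol). Its log2 fold change of 0.60 (SE 0.11, edgeR adjusted p = 0.00233) lay just past the threshold, and it was called in 6 of the 11 alternative settings. Atp6v1g1 (ENSMUSG00000039105.6, chromosome 4, 63544772 to 63550750), a subunit of the outer stalks that brace the sector, had 97.4 and 86.5 CPM (control) against 62.3 and 59.3 CPM (propranolol). Its log2 fold change was -0.59 (SE 0.11, edgeR adjusted p = 0.00199), also close to the threshold, and it was called in 6 of 11 settings, but not without control replicate 1 (-0.45) or without propranolol replicate 2 (-0.53). The catalytic subunit A (Atp6v1a) had a log2 fold change of -0.08, and its partner in the hexameric head, Atp6v1b2, one of 0.42 (edgeR adjusted p = 0.00505). The TPM ratio of Atp6v1a to Atp6v1b2 was 1.17 and 1.07 (control) against 0.803 and 0.783 (propranolol), but the GC-corrected log2 fold changes of the pair were 0.34 and 0.39. The remaining V1 genes lay between -0.39 (Atp6v1d, edgeR adjusted p = 0.0189) and 0.13 (Atp6v1e1), with Atp6v1c1 at 0.02 and Atp6v1h at -0.11. GC-corrected, Atp6v1d turned to 0.21 (edgeR adjusted p = 0.159), Atp6v1c1 had 0.45 (edgeR adjusted p = 0.00914) and Atp6v1h had 1.05 and was called higher, while Atp6v1f (0.37) and Atp6v1g1 (-0.45) were not called.

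As counted, 1 of the 2 accessory subunits rose and the other was lower by less than the fold threshold, but GC-corrected log2 fold changes were 0.49 and 0.46, in the same direction and with neither called. Of all tested genes, 12.2% were called higher and 15.6% lower as counted, and 7.64% higher and 4.97% lower in the GC-corrected fit. Atp6ap1 (ENSMUSG00000019087.13, chromosome X, 74297097 to 74304721), which encodes the Ac45 subunit used in pump assembly, had 299 and 277 CPM (control) against 433 and 432 CPM (propranolol). Its log2 fold change of 0.59 (SE 0.09, edgeR adjusted p = 0.000941) was the closest to the threshold among the genes called. It was called in 7 of the 11 alternative settings, but not without control replicate 2 (0.55) or under a stricter filter on low counts (0.57). Atp6ap2, the prorenin receptor, had 219 and 204 CPM (control) against 178 and 154 CPM (propranolol). It was lower by less than the fold threshold (log2 fold change -0.35, SE 0.11, edgeR adjusted p = 0.0245). The difference was smaller without propranolol replicate 2 (-0.22) and without control replicate 1 (-0.24). The TPM ratio of Atp6ap1 to Atp6ap2 was 1.18, 1.17, 2.10 and 2.42. Among the genes not called, the closest to the threshold were Glb1 (log2 fold change 0.55), Atp6v0d1 and Atp6v0a1.

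The 2 major glycoproteins of the lysosomal membrane differed in direction as counted but not in the GC-corrected fit, where Lamp1 had a log2 fold change of 0.25 and Lamp2 one of 0.34 and neither was called. Lamp2 (ENSMUSG00000016534.15, chromosome X, 38401357 to 38456454), one of whose forms serves chaperone-mediated autophagy, had 536 and 455 CPM (control) against 338 and 275 CPM (propranolol). Its mean fell from 495 ± 57.3 CPM to 306 ± 44.9 CPM (SD, n = 2 each), a log2 fold change of -0.69 (SE 0.12, edgeR adjusted p = 0.00174), but it was not called without control replicate 1 (-0.51) or without propranolol replicate 2 (-0.52). Lamp1 (ENSMUSG00000031447.7, chromosome 8, 13159161 to 13175338), whose promoter holds 4 E-boxes and whose exons overlap antisense Grtp1 over 9.31% of their length, had 1054 and 970 CPM (control) against 1318 and 1293 CPM (propranolol). It was higher by less than the fold threshold (log2 fold change 0.37, SE 0.09, edgeR adjusted p = 0.00811). The TPM ratio of Lamp1 to Lamp2 was 7.02 and 7.62 (control) against 13.9 and 16.8 (propranolol). Mcoln1, the calcium channel of the lysosomal membrane, had 47.2 and 63.0 CPM (control) against 72.5 and 85.4 CPM (propranolol), a log2 fold change of 0.51 (SE 0.15, edgeR adjusted p = 0.0193). Of the proteins that export cholesterol from the lysosome, Npc1 had a log2 fold change of 0.39 (edgeR adjusted p = 0.00913) and Npc2 one of 0.00 (edgeR adjusted p = 0.977).

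**Figure D2:**
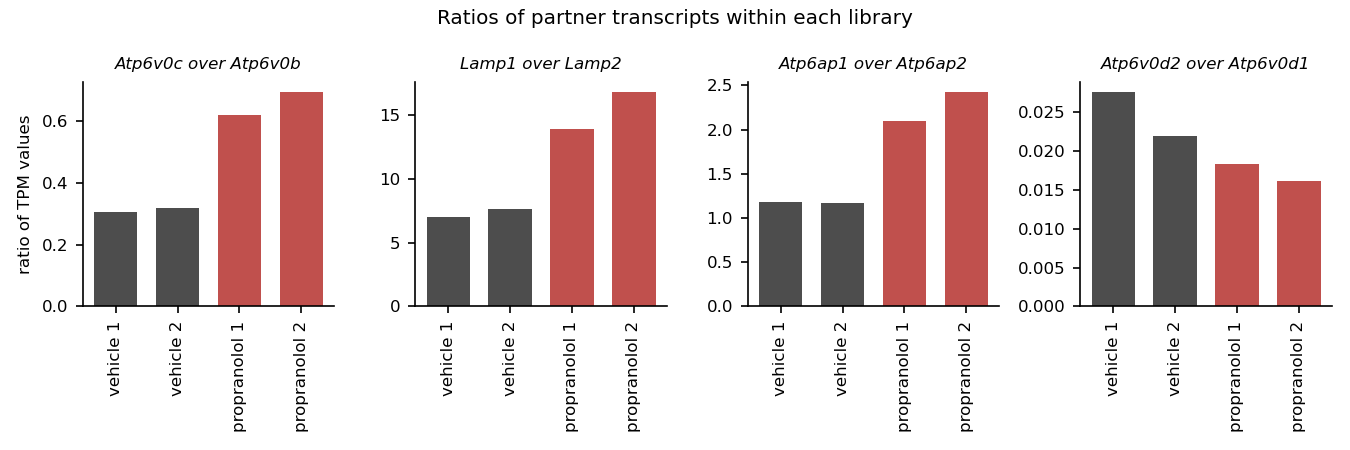
TPM ratios of 4 pairs of partner transcripts in each library, 1 bar a library, grey for control (vehicle) and red for propranolol; each axis starts at 0. The ratios of Atp6v0c to Atp6v0b, Lamp1 to Lamp2 and Atp6ap1 to Atp6ap2 were higher in both propranolol libraries, by 2.11, 2.10 and 1.92 times on average, and that of Atp6v0d2 to Atp6v0d1, which rests on few counts, was lower. The ratios are not GC-corrected. GC-corrected log2 fold changes were 0.83 and -0.41 for the first pair, 0.25 and 0.34 for Lamp1 and Lamp2, and 0.49 and 0.46 for Atp6ap1 and Atp6ap2.

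Among the 11 hydrolases and cofactors, 3 rose, 1 fell and 7 were not called changed, where 12.2% of all tested genes were called higher and 15.6% lower. The groups did not overlap in any of the 11, where 72.6% of all tested genes were separate in this way. Gusb (ENSMUSG00000025534.17, chromosome 5, 129989011 to 130003049), the beta-glucuronidase that trims glycosaminoglycans, had 485 and 475 CPM (control) against 780 and 757 CPM (propranolol). Its mean rose from 480 ± 7.11 CPM to 768 ± 16.4 CPM (SD, n = 2 each), a log2 fold change of 0.68 (SE 0.09, edgeR adjusted p = 0.000360). Neu1 (ENSMUSG00000007038.5, chromosome 17, 34931253 to 34935953), the lysosomal sialidase, had 101 and 111 CPM (control) against 165 and 176 CPM (propranolol), a log2 fold change of 0.69 (SE 0.10, edgeR adjusted p = 0.000657). Tpp1 (ENSMUSG00000030894.5, chromosome 7, 105744811 to 105752235), a tripeptidyl peptidase lost in a form of Batten disease, had 253 and 245 CPM (control) against 374 and 378 CPM (propranolol), a log2 fold change of 0.59 (SE 0.09, edgeR adjusted p = 0.000811). In all 3 the distance between groups was several times the distance within them, and in the GC-corrected fit Tpp1 was called while Gusb (0.52) and Neu1 (0.47) were not. Tpp1 was called in 10 of the 11 alternative settings, but not under a stricter filter on low counts (0.57).

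Asah1 (ENSMUSG00000031591.14, chromosome 8, 41340197 to 41374773), the acid ceramidase, had 433 and 375 CPM (control) against 270 and 244 CPM (propranolol). It fell as counted, with a log2 fold change of -0.65 (SE 0.11, edgeR adjusted p = 0.00109), but was not called in the GC-corrected fit (-0.14, edgeR adjusted p = 0.340), without control replicate 1 (-0.49) or without propranolol replicate 2 (-0.55). Psap, whose saposins include the cofactor of this enzyme, had 7809 and 7634 CPM (control) against 10697 and 10450 CPM (propranolol). It was higher by less than the fold threshold (log2 fold change 0.45, SE 0.08, edgeR adjusted p = 0.00115), and GC-corrected it had 0.17 and did not pass (edgeR adjusted p = 0.197). Glb1 (beta-galactosidase) and Man2b1 (alpha-mannosidase) were also higher below the threshold, with log2 fold changes of 0.55 and 0.42 and adjusted p-values of 0.00529 and 0.00409 from the edgeR test, and Man2b1 did not pass when GC-corrected (0.17, edgeR adjusted p = 0.221). Lipa, the acid lipase that frees cholesterol and fatty acids from engulfed lipoproteins, had a log2 fold change of -0.32 (edgeR adjusted p = 0.0248), which turned to 0.30 in the GC-corrected fit. Hexa (0.16), Ppt1 (-0.15) and Gla (-0.28) did not pass the adjusted p.

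Tfeb itself was a gene of modest level. It had 55.8 and 53.6 CPM (control) against 70.5 and 85.5 CPM (propranolol), without overlap, a log2 fold change of 0.51 (SE 0.12, edgeR adjusted p = 0.00782), under the fold threshold. At the highest GC content of the set (63.2%), its GC-corrected log2 fold change was 0.28 and did not pass (edgeR adjusted p = 0.0836). Of the 8 genes whose promoters hold TCACGTG, Lamp1, Mcoln1, Atp6v0d1 and Glb1 passed the adjusted p, all higher but under the fold threshold. The others did not pass. Without the fold threshold, 21.8% of all tested genes passed higher and 20.4% lower. With it, 0 of the 8 were called changed, against 27.8% of all tested genes, with log2 fold changes from -0.28 (Gla) to 0.55 (Glb1). In so few genes this count depended on the setting, since Atp6v0e was called higher in the GC-corrected fit (0.60, edgeR adjusted p = 0.00346), Glb1 in 3 of 11 alternative settings and Mcoln1 and Atp6v0d1 in 2 each.

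The direction of change within the set moved with the base composition of the transcripts. GC content, taken from the longest transcript, had a rank correlation with the log2 fold change of 0.577 over all tested genes and of 0.638 over the 33 genes, where the points are genes that share the same 4 libraries. In the GC-corrected fit the correlation over the 33 genes was -0.277. Of the 17 genes above the median GC content of all tested genes (49.6%), 16 had a log2 fold change above 0, and their median was 0.51. Of the 16 genes below it, 6 did, and their median was -0.13. GC-corrected, these medians were 0.30 above and 0.39 below. The 6 genes called higher had GC contents from 48.7% to 53.4% and the 3 called lower from 38.7% to 48.2%.

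**Figure D3:**
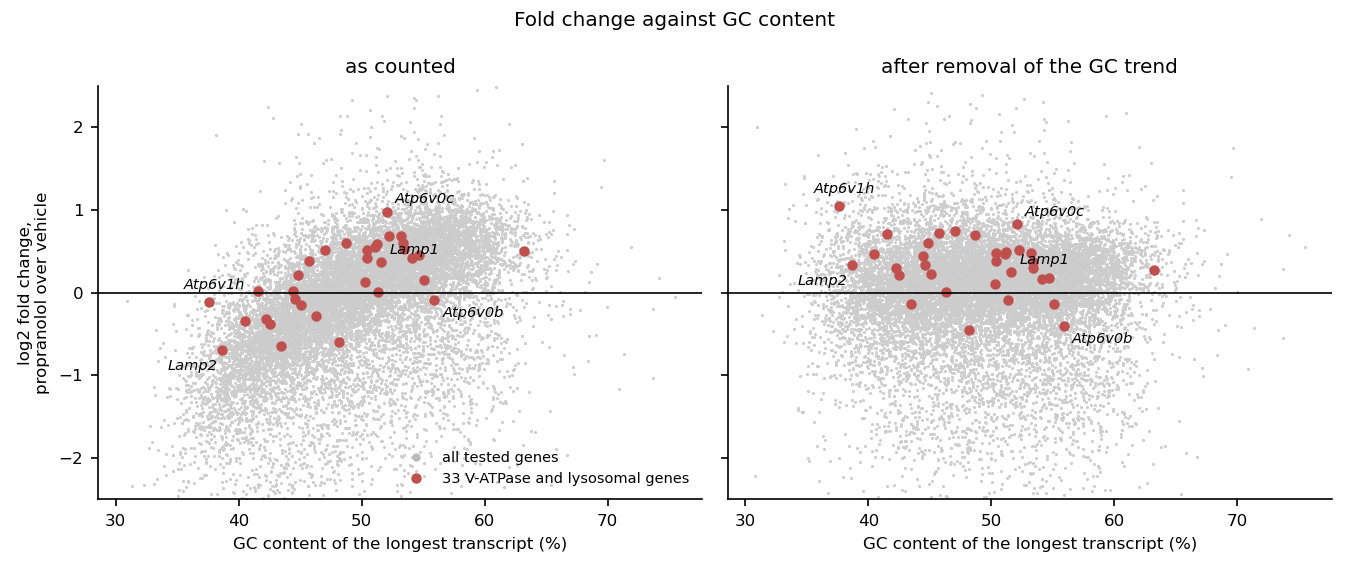
Log2 fold change (propranolol over vehicle) against the GC content of the longest transcript, as counted (left) and after a smooth GC trend of each library was removed (right); grey points are all tested genes and red points the 33 V-ATPase and lysosomal genes, and 172 (left) and 115 (right) genes lie outside the axis limit of 2.5. On the left the red points climb with GC content, and on the right Lamp1 and Lamp2 stand at similar values while Atp6v0c and Atp6v0b remain apart.

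With the trend taken out through offsets of the edgeR test, the median log2 fold change of the 33 genes was 0.34, against 0.09 over all tested genes. By this fit, 6 genes were called higher (18.2%, against 7.64% of all tested genes) and 0 lower (against 4.97%). Atp6v0c (log2 fold change 0.83, edgeR adjusted p = 0.000563) and Tpp1 (0.69, adjusted p = 0.00104) were called higher in both fits. Atp6v0a1 (0.75), Atp6v0e (0.60), Atp6v1h (1.05) and Npc1 (0.71) were called only after the correction. Atp6v1h has the lowest GC content of the set (37.6%) and the largest correction, from -0.11 as counted.

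The pairs of partner genes behaved in different ways. Lamp1 and Lamp2, with GC contents of 51.6% and 38.7%, had log2 fold changes of 0.37 and -0.69 as counted and of 0.25 and 0.34 after the correction. Atp6ap1 and Atp6ap2 (51.2% and 40.5%) had 0.59 and -0.35 as counted and 0.49 and 0.46 after it. The 2 ring proteolipids Atp6v0c and Atp6v0b (52.1% and 55.9%) had 0.98 and -0.09 as counted and 0.83 and -0.41 after it, so that their difference was as large without the trend. Atp6v1g1 (48.2%) was lower in both fits, with -0.59 as counted and -0.45 after it (edgeR adjusted p = 0.0133), and Asah1 (43.5%) went from -0.65 to -0.14.

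**Figure D4:**
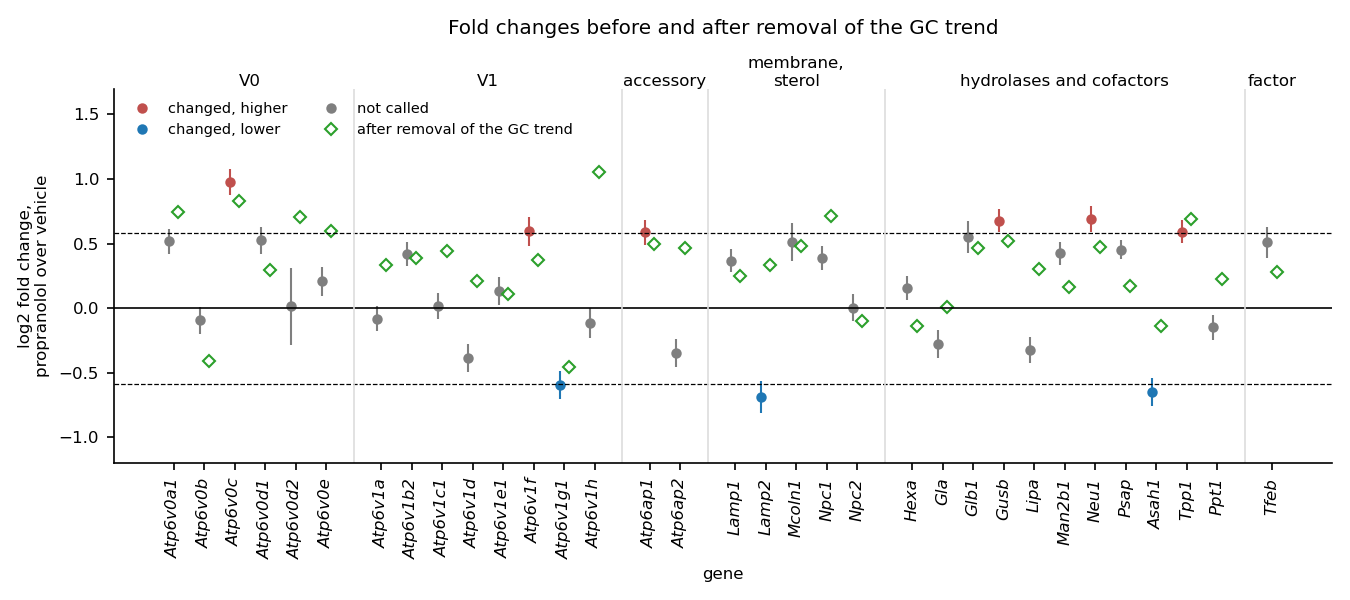
Log2 fold changes of the 33 genes by role; circles with bars are the fitted values with their standard errors (red for called higher, blue for called lower, grey for not called), open diamonds the values after removal of the GC trend, and dashed lines the 1.5-fold threshold. The called genes other than Atp6v0c lie close to the threshold, and most diamonds lie above 0.

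Other genes of the same compartment, from lists written by hand, are given for comparison, and their counts stand against the same background of 27.8% called, 12.2% higher and 15.6% lower, or 7.64% higher and 4.97% lower after the GC correction. Of 11 tested genes among 17 other V-ATPase subunits and assembly factors, 2 rose and 2 fell. After the GC correction 3 genes of this list were called higher and 0 lower. Tcirg1, which encodes the a3 form of subunit a of macrophages and osteoclasts, had 437, 564, 871 and 1101 CPM, a log2 fold change of 0.98 (SE 0.14, edgeR adjusted p = 0.00061), and 0.63 after the GC correction, where it was still called. Rogdi, which acts with Dmxl1 in rejoining V1 and V0, rose by 0.72 on the log2 scale and was not called after the correction (0.38). Vma21, an assembly factor, and Dmxl1, a subunit of the complex that rejoins V1 and V0, had log2 fold changes of -1.63 and -1.22 at GC contents of 37.3% and 38.3%, and of -0.44 and -0.15 after the correction, where neither was called. The tissue-restricted subunits Atp6v0a4, Atp6v0e2, Atp6v1b1, Atp6v1c2, Atp6v1e2 and Atp6v1g3 had too few counts to be tested.

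Of 29 other hydrolases and cofactors, 7 rose, 1 fell and 21 were not called, so that 8 of 29 were called against 27.8% of all tested genes, with a median log2 fold change of 0.28. The highest were Hyal2 (1.10), a hyaluronidase, and Sgsh (0.79), a heparan sulfate sulfamidase. Ids, the iduronate sulfatase, was the gene that fell (-0.81). After the GC correction 3 genes of this list were called higher and 0 lower, with Hyal2 (0.81) still called and Sgsh (0.46) and Ids (-0.10) not.

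Of 23 tested genes among 24 other lysosomal membrane proteins, 5 rose and 1 fell, with a median of 0.20. Slc15a3 (0.85), a peptide and histidine transporter, and Tpcn2 (0.79), a cation channel, were highest, Mfsd8 (-0.92) was the gene that fell, and the smallest rise was that of Laptm5 (0.61). After the GC correction 2 genes of this list were called higher and 0 lower, and Slc15a3 (0.51), Tpcn2 (0.54), Mfsd8 (-0.32) and Laptm5 (0.29) were not called. Cd68 had 624, 652, 968 and 922 CPM (log2 fold change 0.57, edgeR adjusted p = 0.000883), just under the threshold, and Cd63 had a log2 fold change of 0.24 (edgeR adjusted p = 0.101).

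Of 19 relatives of Tfeb and genes of the mTORC1 machinery on the lysosome, 7 rose and 1 fell, and after the GC correction 3 were called higher and 0 lower. The Ragulator genes Lamtor4 (0.91) and Lamtor1 (0.75), whose products anchor mTORC1 regulators to the lysosome, were highest, and Lamtor5 (0.61) was the smallest rise. After the correction Lamtor1 (0.83) and Lamtor5 (0.61) were called and Lamtor4 (0.58) was not. Fnip1, a partner of folliculin, fell (-1.26 at 38.9% GC, and -0.26 after the GC correction). The Tfeb relatives had log2 fold changes of 0.58 for Tfe3 (edgeR adjusted p = 0.0014), -0.40 for Mitf (adjusted p = 0.0261) and 0.15 for Tfec (adjusted p = 0.480), none past the fold threshold. After the correction Mitf had 0.11 and Tfec 0.98, which was called higher. Of 6 genes of mannose 6-phosphate sorting, which tags hydrolases for the lysosome, Nagpa rose (1.12, and 0.81 after the correction) and the others were not called.

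Markers of cell types moved with these differences, and their part in them was not tested. Called markers stand against 12.2% of all tested genes called higher and 15.6% lower as counted. In the GC-corrected fit these shares were 7.64% and 4.97%. Of 10 macrophage markers, Csf1r was called higher and 9 were not called, with a median log2 fold change of 0.29 and summed CPM of 22595, 21640, 28237 and 25559, the most abundant being Lyz2. Of 7 tested neutrophil markers, 5 rose, with summed CPM of 180, 198, 355 and 381, the most abundant being Csf3r, while Ly6g, Camp and Ngp were at or near 0. Of 10 T cell markers 9 fell and of 8 NK cell markers all fell, with summed CPM of 273, 317, 141 and 76.4 and of 143, 149, 57.5 and 29.9. Of 10 fibroblast and sarcoma cell markers 8 fell, with summed CPM of 3351, 1276, 720 and 752, led by Col3a1, and control replicate 1 stood apart in them. Without control replicate 1, 9 of the 33 genes were called higher and 0 lower, where 12.4% of all tested genes were higher and 10.4% lower, since Lamp2 (-0.51), Asah1 (-0.49) and Atp6v1g1 (-0.45) no longer passed the fold threshold. Of 7 dendritic cell markers 3 fell, of 5 tested endothelial markers 1 rose, and of 3 tested B cell markers 1 rose and 1 fell. In the GC-corrected fit Mrc1 (0.85) and not Csf1r (0.32) was the macrophage marker called higher, 6 neutrophil markers were higher, and 9 T cell, 5 NK cell, 7 fibroblast and sarcoma cell and 1 dendritic cell markers were lower, with 0 endothelial and 0 B cell markers called.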

How the data were processed

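RNA of sorted TAMs was sequenced as poly-adenylated RNA in 4 libraries. Per the submitters' processing notes and methods, the authors used STAR 2.7.1a (mm10), removed alignments of low mapping quality with SAMtools 1.9, counted fragments on exons of a GENCODE annotation with featureCounts 1.6.4 and deposited these counts without normalization. The annotation release and a strand option are not given in the sources used here, so reads of overlapping genes on opposite strands (up to 12.8% of exon length among the 33 genes, in Hexa) could not be told apart. Columns were matched to libraries by the number in the labels, and 0 columns were left out. Of 54146 genes, 54079 matched GENCODE M21 (GRCm38), which gave symbols, positions, exon lengths and GC content.

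Counts were tested with R 4.3.3 and edgeR 4.0.16 (filterByExpr with a minimum count of 10, TMM factors of 1.08, 1.09, 0.914 and 0.931, quasi-likelihood test, Benjamini-Hochberg adjustment over 14688 genes, no covariate), and the standard error was taken as the size of the log2 fold change over the root of F. The precision of low genes is limited by the depth and by the spread between libraries. Alternatives were the DESeq2 1.42.0 Wald test, DESeq2 size factors, other filters, other fold thresholds, each library left out, the replicate number as a block, and removal of a spline (5 degrees of freedom) of each library on gene GC content. The steps were run on simulated counts as a check of the code, which does not show how well the GC correction suits these data. Exact permutation of 2 libraries against 2 cannot give a p below 0.333 and was not used. The genes, lists and partner pairs were chosen with earlier results of these data known. Every member is accounted for, and values per library are given for each called member, the highest and lowest of each role group, Tfeb, Lamp1, Lamp2, Mcoln1, Atp6v0d1 and Atp6v0d2, with Psap and single fold changes of other members added after their values were seen. Of each related list, the 2 highest and 2 lowest called genes and a few fixed genes are named, except for genes that are not reported here. Promoter sequences are from RefSeq (GRCm38.p6).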

Additional observations from a re-analysis of the deposited data

How the results depend on the processing

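Direction and call of the 33 genes were recomputed under 11 alternative settings that keep the fold threshold, and the counts also under other thresholds. The DESeq2 Wald test and DESeq2 size factors left the counts at 9 called genes, 6 higher and 3 lower, where 25.9% and 27.7% of all genes were called. Without a filter 9 were called higher and 1 lower (8.19% and 7.57% of all genes), and with the stricter filter (CPM of at least 1) 3 higher and 3 lower (13% and 18.1% of all genes). Under that filter Atp6v1f (0.57), Atp6ap1 (0.57) and Tpp1 (0.57) no longer passed the fold threshold. Atp6v0d2 (-0.0083), Atp6v1c1 (-0.0026) and Npc2 (-0.0174) changed sign under it. At a log2 threshold of 1.5, 728 genes were called (61 higher, 667 lower), with 0 of the 33 in either direction. With no fold threshold 6204 genes (3205 higher, 2999 lower) and 22 of the 33 (16 higher, 6 lower) passed.

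The GC correction left 1851 called genes (1121 higher, 730 lower), 0 of the 33 called lower and a median of the 33 of 0.34. It reversed Atp6v1a (0.34), Atp6v1d (0.21), Atp6v1h (1.05), Atp6ap2 (0.46), Lamp2 (0.34), Npc2 (-0.10), Hexa (-0.14), Gla (0.0054), Lipa (0.30) and Ppt1 (0.23). It also ended the calls of Atp6v1f (0.37), Atp6v1g1 (-0.45), Atp6ap1 (0.49), Gusb (0.52), Neu1 (0.47) and Asah1 (-0.14).

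Libraries of the 2 groups share replicate numbers, but the correlation of same-numbered deviations was 0.169 over only 2 pairs and nothing in the labels ties the numbers to a batch, so they were not taken as pairs. The replicate block gave 4362 called genes (29.7%) and the same counts of 9, 6 and 3 among the 33. Together, GC correction and replicate block gave 2120 called genes (1180 higher, 940 lower), 0 of the 33 lower, a median of 0.34 and the same 10 reversals: Atp6v1a 0.34, Atp6v1d 0.21, Atp6v1h 1.05, Atp6ap2 0.46, Lamp2 0.34, Npc2 -0.10, Hexa -0.14, Gla 0.0034, Lipa 0.30 and Ppt1 0.23.

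Leaving out 1 library at a time, which leaves a lone library assumed to vary like the other group, gave 7 to 10 called genes among the 33, with 5 to 9 higher and 0 to 3 lower, where 22.3% to 29.1% of all genes were called, 11.3% to 14.2% higher and 10.4% to 15% lower, and medians from 0.0893 to 0.353. The 3 genes called lower lost their calls without control replicate 1, and also without propranolol replicate 2 (Atp6v1g1 -0.53, Lamp2 -0.52, Asah1 -0.55). Leave-one-out values ranged from -0.19 to 0.0303 for Atp6v0b, -0.21 to 0.33 for Atp6v0d2, -0.13 to 0.0408 for Atp6v1a, -0.0151 to 0.12 for Atp6v1c1, -0.20 to 0.0115 for Atp6v1h and -0.11 to 0.15 for Npc2, and none of these 6 was called in those fits. Of the genes called higher, Atp6v1f (0.55) and Atp6ap1 (0.55) lay under the fold threshold without control replicate 2. Atp6v1f (0.48) also did so without propranolol replicate 1. The cause of these shifts was not tested.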
